A study of Mus musculus with 8 samples.

Results

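The 5 Sca1-MALT1 arrays are described here as a single group, out of 8 arrays in the series. They were taken by their titles, which number them as replicates 1 to 5, and not by a measured value. Earlier results of these data were known when the group was chosen. Each array holds RNA of cells sorted as Sca1+Lin- from the bone marrow of Sca1-MALT1 transgenic mice, which carry a transgene that its name ties to Sca1 and MALT1; the labels do not describe its promoter or cells. The other 3 arrays hold the same sort from wild-type mice and enter here as a background for the distance between arrays, in choosing each gene's probe set and beside genes found at separate levels. The labels give no sex, age, strain or batch, and they do not say whether the arrays came from separate animals, pools or litters, so the spread between them may be partly technical. Total RNA was amplified linearly, labelled with biotin and hybridised to Affymetrix mouse arrays, and the values are log2 probe signals normalized by RMA.

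Sca1 is a surface protein of mouse blood stem and progenitor cells, also found on many lymphocytes, and Lin- means that cells carrying surface proteins of mature lineages were depleted. MALT1 is a protease and scaffold that links antigen receptors to the NF-kB pathway in lymphocytes. Marrow cells of a given lineage can be followed through groups of genes: homeobox genes such as Hoxa9 and Meis1 in stem and progenitor cells, granule proteins in neutrophils, the CD3 chains in T cells, haem and membrane-skeleton genes in erythroblasts, and immunoglobulins in plasma cells. In bulk RNA, fewer cells of a type and less RNA per cell cannot be told apart.

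The arrays held 18193 genes measured by probe sets of a single gene, each gene by its brightest probe set. The medians of the 5 arrays lay between 6.40 and 6.47, and values ran from 2.73 to 15.41, all log2 signal. A progenitor gene and genes of several mature lineages all read above 7 in every array, though levels cannot be ranked between genes. Kit, the stem cell factor receptor, read 8.90, 10.52, 9.12, 8.43 and 10.65 in replicates 1 to 5. S100a8, a neutrophil calcium-binding protein, read 12.96 to 14.89, the B cell protein Ms4a1 10.20 to 12.54, the red cell anion exchanger Slc4a1 12.11 to 13.87 and the IgA heavy chain Igha 15.10 to 15.38. The gene of Sca1 itself, Ly6a, was not analysed here. The arrays are therefore called by their label and by no cell type.

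Most genes differed little over the 5 arrays. The median SD was 0.24 on the log2 scale, and 9550 genes (52.5%) had an SD under 0.25. An SD of at least 1 was reached by 583 genes, or 3.20% of those measured, and an SD of at least 2 by 33. The 99th percentile of the SD was 1.39 and the largest SD 3.93. Among the 583 genes, 441 had a mean of at least 7, and 361 had at least 1 array under 7, where the array separates low signals poorly. Spread depended on brightness: the median SD was 0.14 for genes with a mean under 5, 0.34 between 7 and 9, and 0.12 for the 47 genes with a mean of at least 14, where signals come near the top of the scale. For the 10097 genes with a mean of at least 7 it was 0.31, so dim genes lower the median over all genes. A small SD of a very bright gene is therefore a weak measure of constancy.

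By the median over all genes the arrays differed from each other by similar amounts, while counts of strongly differing genes varied more. The median absolute log2 difference over all genes ran from 0.181 between replicates 2 and 3 to 0.275 between replicates 4 and 5. The wild-type arrays, compared among themselves in the same way, differed by 0.218 to 0.253. Replicates 1 and 3 differed by at least 2 at 80 genes, and replicates 4 and 5 at 420 genes. Pairs of wild-type arrays did so at 120 to 225 genes. Every pair with replicate 4 exceeded this, at 247 genes or more, as did replicates 1 and 5 at 300. The leading principal component held 38.2% of the variance and placed replicate 4 at 60.3, replicate 1 at 0.24 and the others between -26.1 and -15.7. The next held 28.6% and placed replicate 5 at 46.2 and replicate 4 at 10.8, against -26.9 to -3.8 for the rest. The third, with 21.1%, placed replicate 2 at 41.8 and the other arrays between -26.9 and 3.5.

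The genes that varied were divided most often into replicate 4 against the rest. For each gene the 5 values were sorted, and the widest gap between neighbours split the arrays into a high and a low side. Of the 583 genes with an SD of at least 1, 154 (26.4%) had replicate 4 alone on the high side, compared with 9.53% of all genes. Replicate 5 stood alone on the high side at 67 genes (11.5%; 12.4% of all genes) and alone on the low side at 49 (8.40%; 4.37% of all genes). Replicates 2 and 5 formed the high side together at 43 genes (7.38%), against 2.78% of all genes. Replicate 4 alone was low at 38 genes (6.52%; 9.98% of all genes) and replicate 2 alone was low at 29 (4.97%; 6.46% of all genes). Replicate 1 alone was high at 22 genes (3.77%; 8.72% of all genes) and replicate 2 alone at 16 (2.74%; 3.30% of all genes).

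The largest SDs belonged to genes from several unrelated groups. The leading gene was Eif2s3y, a Y-linked translation factor gene, at 10.81, 3.75, 11.004, 3.56 and 10.68 in replicates 1 to 5. Xist, the RNA that coats an inactive X chromosome, read 6.58, 13.09, 6.45, 12.46 and 6.20. The Y-linked genes Kdm5d and Uty followed Eif2s3y, with SDs of 2.81 and 2.25. Replicates 2 and 4 were thus high for Xist and low for the 3 Y-linked genes, and the other arrays were the reverse, with no overlap. Whether this difference contributes to the spread of other genes was not tested.

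Trim12a and Mndal also sat at distinct levels. Trim12a, of the TRIM family of antiviral proteins, read 8.93, 9.78, 3.82, 3.92 and 9.43, and was low in replicates 3 and 4. A second Trim12a probe set, at a low signal, was not split and read 5.84, 6.55, 5.89, 5.92 and 5.47. The levels of Trim12a thus rest on 1 probe set. Mndal, an interferon-inducible gene of the Ifi200 family, read 10.94, 6.21, 11.75, 11.55 and 6.13, and was low in replicates 2 and 5. Ifi202b, of the same family, was low in replicate 4 alone, at 4.42 against 8.53 to 9.57. Ifi44l, another interferon-induced gene, read 6.92, 9.70, 5.03, 9.38 and 5.47, high in replicates 2 and 4. H2-Q2, a class I histocompatibility gene whose near copies can share its probes, read 3.17, 3.09, 6.13, 3.59 and 7.80.

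Granule and neutrophil genes made up much of the rest of the 24 genes with the largest SD. Ctsg, Mpo and Elane, which encode granule proteins of neutrophil precursors, had SDs of 2.68, 2.48 and 2.47. Ms4a3, a marker of granulocyte and monocyte precursors, read 10.49, 7.94, 6.75, 12.54 and 7.24. Mcpt8, a basophil protease, read 8.00, 6.14, 5.35, 10.84 and 7.90. Mgam, Sgms2 and Dmkn were also highest in replicate 4, at 10.39, 10.49 and 10.40. Mgam encodes a glucosidase and Sgms2 a sphingomyelin synthase. Without replicate 4 the SD of Mgam fell from 2.24 to 0.79, and that of Dmkn from 2.43 to 1.09.

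The other genes among the 24 followed different arrays. Galc, a lysosomal galactosidase, read 7.81, 4.88, 4.76, 5.06 and 9.54, high in replicates 1 and 5. Cntnap2, a neurexin-related adhesion protein, read 9.47, 8.85 and 10.33 in replicates 1 to 3 and 4.78 and 4.66 in replicates 4 and 5. Slc15a2, a peptide transporter, was high in replicates 2 to 4 at 10.39 to 11.55 and low in replicates 1 and 5 at 6.68 and 6.97. Malat1, a nuclear long noncoding RNA, and Cap1, a regulator of actin turnover, were low in replicate 5 alone. Malat1 read 7.63 there against 12.34 to 13.37, and Cap1 6.57 against 11.55 to 11.87. The immunoglobulin light-chain genes Igkv6-20 and Igkv15-103, with SDs of 2.62 and 2.13, are described with the plasma cell genes.

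**Figure D1:**
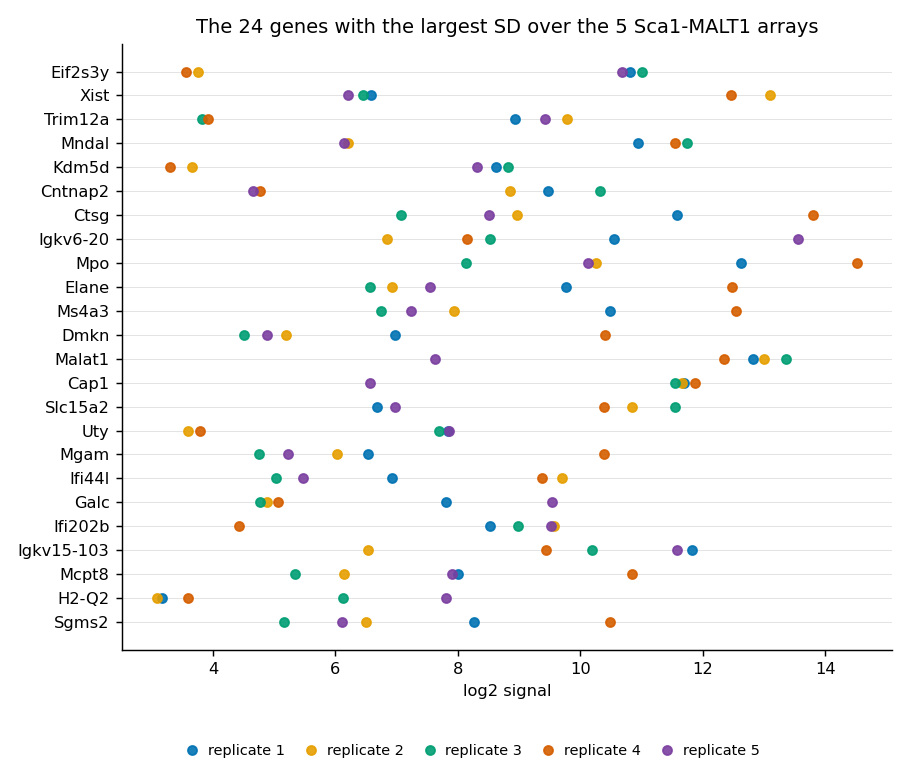
The 24 genes with the largest SD over the 5 Sca1-MALT1 arrays, with a point for each array on a log2 signal axis and genes ordered by SD. Eif2s3y and Xist split into 2 levels more than 5 log2 units apart, while Ctsg, Mpo and Elane peak in replicate 4.

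Signs of RNA quality set replicate 5 apart. The difference between the 3′ and 5′ control probe sets of β-actin, which grows as transcripts shorten, was 2.49 in replicate 5 against 1.25 to 1.53 in the other 4 arrays. For Gapdh it was 3.20 against 2.25 to 2.75. The brightest Actb probe set read 12.72 in replicate 5 and 14.54 to 14.64 elsewhere, and its SD was 0.84 with replicate 5 and 0.04 without it. Another Actb probe set did not drop, at 10.99 in replicate 5 against 10.74 to 11.03. The part of this difference in any result on replicate 5 below was not tested. The Malat1 probe sets disagreed. Of the other 5 with a mean of at least 7, 3 were far lower in replicate 5, but another read 10.89 there against 10.91 in replicate 2, and the last read 10.02, above the 9.47 of replicate 4. Without replicate 5 the SD of Malat1 was 0.42 and that of Cap1 0.13.

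Stem and progenitor genes varied widely and were highest in replicates 2 and 5. Of 32 entries, 31 were measured, their median SD was 1.0 against 0.24 over all genes, and 16 reached an SD of at least 1. Over all genes 3.20% reached it, the share to set beside this count in each list below. Dim genes lower both backgrounds, while most members of the stem, neutrophil, T cell, erythroid and plasma cell lists had a mean of at least 7. Among all genes with such a mean, the median SD was 0.31, and 441 of 10097 reached an SD of at least 1. The mean of the members was 7.80, 9.46, 8.39, 8.42 and 9.75 in replicates 1 to 5. Replicate 5 was highest for 18 members and replicate 2 for 10, while 30.5% and 13.4% of all genes were highest in these arrays. Replicate 1 was lowest for 20 members, against 15.3% of all genes. For 10 members the widest gap put replicates 2 and 5 together on the high side, against 2.78% of all genes. Replicate 2 lay above the mean of the other arrays for 28 members and replicate 5 for 29. The median difference from that mean was 0.93 and 1.19 for the members, against -0.05 and 0.09 over all genes.

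Homeobox factors of stem cells were split in the same way by their brightest probe sets. Hoxa9, a homeobox factor that maintains immature blood cells, read 8.39, 11.70, 9.72, 9.44 and 11.48 (SD 1.41, n = 5). Meis1, its DNA-binding partner, read 7.39, 10.62, 8.68, 8.09 and 10.71 (SD 1.5, n = 5). For both genes replicates 2 and 5 lay above the other 3 arrays without overlap, and the highest array exceeded the lowest 9.92-fold for Hoxa9 and 10.04-fold for Meis1. A second Hoxa9 probe set varied much less, with an SD of 0.21, so the spread of Hoxa9 rests on 1 probe set. Hoxa7 and Hoxa5, from the same gene cluster, were the steadiest bright members of the list, with SDs of 0.15 and 0.22. Hoxa7 read 8.19, 8.09, 7.97, 7.96 and 8.31.

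A ligand and transcription factors of stem cells were also highest in replicates 2 and 5. Angpt1, a ligand of the receptor Tek, read 7.46, 10.39, 8.76, 8.14 and 11.33 (SD 1.60), a 14.6-fold range. Sox4, a transcription factor of progenitors, read 7.20, 10.84, 8.25, 9.50 and 10.58. Mecom, a zinc finger factor needed for stem cell maintenance, read 7.21, 10.01, 8.29, 7.31 and 10.49. Mycn, a proto-oncogene of the Myc family, read 8.01, 10.63, 9.52, 8.24 and 11.48. In each of these 4 genes replicates 2 and 5 were the highest arrays. Kit and the progenitor surface protein Procr did the same, Procr reading 8.21, 10.46, 8.90, 9.25 and 10.97. The widest gap placed replicate 4 with replicates 2 and 5 on the high side for Sox4, and replicate 3 with them for Mycn. Another Mycn probe set with a mean of at least 7 had a different highest and a different lowest array.

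Other members also departed from a division of replicates 2 and 5 against the rest. Myb, a factor of proliferating progenitors, was high in replicates 2, 4 and 5 at 12.13 to 12.19 and lower in replicates 1 and 3 at 9.81 and 9.68. Cd34, a surface protein of progenitors, read 6.72, 9.80, 7.44, 9.07 and 9.36, so replicate 4 stood near replicates 2 and 5. Tal1 and Lmo2, which act in both stem cells and erythroid cells, had SDs of 0.61 and 0.64. Tal1 was highest in replicate 3 at 11.63 and lowest in replicate 1 at 10.22. The β-actin 3′ to 5′ difference was 1.53 in replicate 2 and 2.49 in replicate 5, and its part in the stem gene values was not tested.

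**Figure D2:**
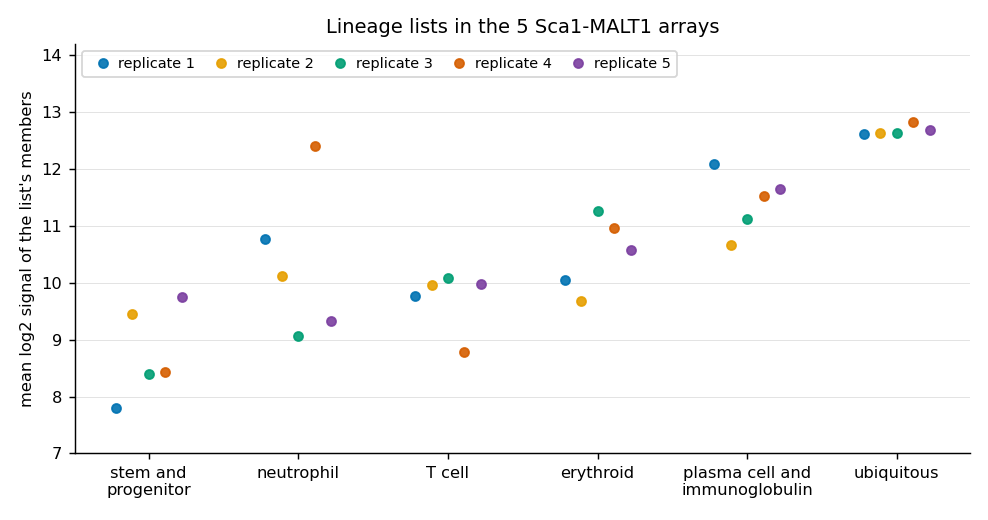
Mean log2 signal of the measured members of each gene list in the 5 Sca1-MALT1 arrays, with a point for each array in the stem, neutrophil, T cell, erythroid, plasma cell and ubiquitous lists. The highest array differs by list: replicate 5 for stem genes at 9.75, replicate 4 for neutrophil genes at 12.40, replicate 3 for T cell and erythroid genes at 10.08 and 11.26, and replicate 1 for plasma cell genes at 12.10.

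Neutrophil genes varied most among the 5 lists and did so largely in step. Of 32 entries, 26 were measured, with a median SD of 1.35, and 21 reached an SD of at least 1. The mean of the members was 10.77, 10.13, 9.06, 12.40 and 9.32. Replicate 4 was highest for 25 of the 26, compared with 21.7% of all genes. It stood alone above the widest gap for 19, against 9.53% of all genes. The lowest array was replicate 3 for 17 members and replicate 5 for 9, against 21.2% and 13.5% of all genes. Stfa3, a stefin, was the member not highest in replicate 4 and read 4.63 to 5.99. Without replicate 4 the median SD of the list was 0.80, and the range of its mean shrank from 3.34 to 1.71.

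Primary granule proteases and myeloperoxidase were among the members that varied widely. Ctsg, the protease cathepsin G, read 11.57, 8.97, 7.07, 13.80 and 8.51, a 106-fold range. Mpo, myeloperoxidase, read 12.63, 10.25, 8.13, 14.53 and 10.13. Elane, neutrophil elastase, read 9.77, 6.93, 6.57, 12.48 and 7.54. Prtn3, the neighbouring protease gene, read 11.32, 11.06, 9.21, 13.22 and 10.89. Replicate 1 was next highest for these 4 genes.

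Proteins of later granules and the surface were also highest in replicate 4. S100a8 read 14.32, 14.16, 13.32, 14.89 and 12.96 (SD 0.78). Lcn2, an iron-sequestering granule protein, read 12.67, 12.17, 10.95, 14.26 and 11.26. Cxcr2, a chemokine receptor of neutrophils, read 8.59, 7.55, 6.54, 10.41 and 6.75. Itgam, the CD11b integrin chain found on neutrophils and monocytes, read 5.55, 4.94, 4.28, 8.71 and 4.86, and replicate 4 alone was above 7. Its SD was 1.76 with replicate 4 and 0.52 without it. Ceacam1, an adhesion molecule, read 9.31, 8.36, 7.58, 11.17 and 6.42. Anxa1, an annexin that limits neutrophil recruitment, had the smallest SD among bright members, 0.61, and was still highest in replicate 4 at 14.36.

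The promoters of Elane and Itgam are shown because these genes moved with the neutrophil list and hold the letters GAGGAA, the core bound by the myeloid factor PU.1 and relatives. Each runs from 250 bases before to 50 after the gene's start (RefSeq, GRCm38.p6): Elane at chr10:79886062-79886361 and Itgam at chr7:128062390-128062689, both on the plus strand. Capitals mark GAGGAA on either strand, so the opposite strand reads TTCCTC.
Elane: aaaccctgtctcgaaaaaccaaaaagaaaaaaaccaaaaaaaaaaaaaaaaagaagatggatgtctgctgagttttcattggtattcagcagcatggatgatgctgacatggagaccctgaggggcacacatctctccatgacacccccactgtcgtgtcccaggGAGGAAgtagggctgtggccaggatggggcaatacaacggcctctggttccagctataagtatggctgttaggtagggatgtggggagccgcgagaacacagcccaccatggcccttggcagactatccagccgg
Itgam: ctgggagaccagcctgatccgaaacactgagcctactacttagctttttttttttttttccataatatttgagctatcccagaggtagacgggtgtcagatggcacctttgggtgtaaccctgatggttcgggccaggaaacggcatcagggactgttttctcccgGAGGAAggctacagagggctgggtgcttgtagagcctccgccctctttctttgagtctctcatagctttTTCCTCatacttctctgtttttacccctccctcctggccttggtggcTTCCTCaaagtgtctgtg
GAGGAA on either strand was found in 17 of 24 promoters of the neutrophil list (70.8%), which matched 23 genes. Ceacam10 entered through overlapping promoters that hold the same site. The letters were found in 28.1% of all 32544 promoters of the same length, in 11 of 21 plasma cell promoters (52.4%) and in 8 of 37 stem gene promoters (21.6%). For T cell promoters it was 9 of 23 (39.1%) and for erythroid promoters 7 of 23 (30.4%). A match is a description of letters and not a measured binding site.

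T cell genes stayed close in 4 arrays and were lower in replicate 4. Of 30 entries, 25 were measured, with a median SD of 0.70. An SD of at least 1 was reached by 1, a share near the 3.20% of all genes. The mean was 9.77, 9.96, 10.08, 8.78 and 9.98. Replicate 4 was lowest for 21 members, against 25.4% of all genes, and alone below the widest gap for 15, against 9.98% of all genes. Without replicate 4 the median SD was 0.30 and the range of the list mean 0.31, in place of 1.30. Summarised by the median of its members, the list was again lowest in replicate 4 but highest in replicate 5, over a range of 1.77.

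Several chains of the T cell receptor complex and several surface receptors were lowest in replicate 4. Cd28, a co-stimulatory receptor, read 10.61, 10.36, 10.39, 8.61 and 10.66 (SD 0.86, n = 5), and its SD was 0.15 without replicate 4. Thy1, a surface glycoprotein of T cells and some progenitors, read 12.72, 12.92, 12.46, 10.99 and 12.48 (SD 0.77, n = 5), and its SD was 0.22 without replicate 4. Cd247, the zeta chain of the T cell receptor complex, read 8.51, 9.72, 9.77, 7.24 and 9.74 (SD 1.12). Cd3g, another chain of that complex, read 10.75, 11.46, 11.65, 9.13 and 10.78. Cd2, an adhesion receptor, read 11.11, 11.15, 11.55, 9.22 and 10.54. The adaptor gene Trat1 had a lowest value of 5.08 in replicate 4 against 6.64 to 7.35 elsewhere. Ctla4, an inhibitory receptor, was highest in replicates 1 and 3, at 8.83 and 8.73, and lowest in replicate 4, at 6.58.

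Several T cell genes changed little or differed in pattern. Gata3, Zap70 and Il7r were lowest in replicate 4 but over small ranges. Gata3, a transcription factor of T cells and innate lymphoid cells, stayed between 10.84 and 11.18 (SD 0.15). Zap70, a kinase of the receptor complex, lay between 9.95 and 10.43, and Il7r, the interleukin-7 receptor, between 13.38 and 14.24. Cd4 read 7.73, 7.16, 7.25, 7.36 and 7.37, and the CD8 chains Cd8a and Cd8b1 stayed between 5.57 and 6.97, low on the scale in every array. Icos, a co-stimulatory receptor, was low in both replicate 4 and replicate 5, at 11.31 and 11.52, against 12.52 to 12.87.

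**Figure D3:**
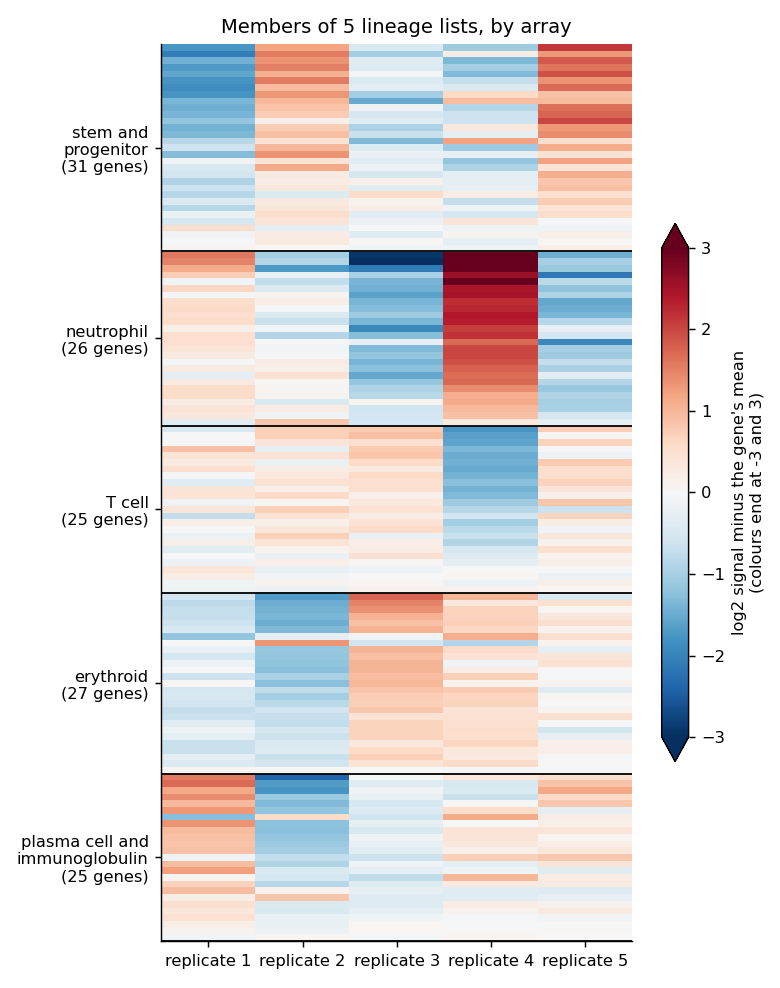
Log2 signal of each measured member of the 5 main lists, centred on the member's mean over the 5 Sca1-MALT1 arrays, with members as rows, arrays as columns and colours that end at -3 and 3. Neutrophil members are above their mean in replicate 4, T cell members mostly below theirs in the same array, most stem members above in replicates 2 and 5, and most erythroid members above in replicate 3.

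Erythroid genes were highest in replicate 3 and lowest in replicate 2. Of 32 entries, 27 were measured, with a median SD of 0.80, and 5 reached an SD of at least 1. The mean was 10.06, 9.68, 11.26, 10.97 and 10.58. Replicate 3 was highest for 21 members and replicate 2 lowest for 20, against 11.3% and 24.6% of all genes. The widest gap placed replicates 3 and 4 on the high side for 9 members, compared with 1.07% of all genes. For another 9 it placed replicates 3, 4 and 5 there, compared with 1.13% of all genes.

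The 5 erythroid members with the largest SDs included genes of the red cell membrane and skeleton. Trim10, a gene of terminal erythroid differentiation, read 10.58, 9.48, 12.88, 12.16 and 10.72, a 10.5-fold range. Tspo2, a membrane protein of erythroblasts, read 8.18, 7.47, 10.46, 9.28 and 9.44. Epb42, a protein of the red cell skeleton, read 9.07, 8.36, 11.16, 10.48 and 9.83. Tmod1, which caps actin filaments of that skeleton, read 8.33, 7.65, 10.08, 9.72 and 9.37. Rhd, of the Rh blood group complex, read 10.84, 10.01, 12.33, 12.17 and 11.96. In each of these 5 genes replicate 3 was highest and replicate 2 lowest.

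Regulators and haem genes were also higher in replicate 3 than in replicate 2. Gata1, the principal erythroid transcription factor, read 9.53, 9.42, 10.38, 10.53 and 9.95 (SD 0.49). Klf1, its partner in erythroid genes, read 10.81, 10.59, 12.12, 12.06 and 11.37. Epor, the erythropoietin receptor, read 8.48, 8.06, 9.44, 9.02 and 8.69. Alas2, the first enzyme of erythroid haem synthesis, read 12.67, 11.40, 13.69, 12.90 and 12.64. Tfrc, the transferrin receptor that imports iron, read 11.61, 11.24, 13.14, 12.94 and 12.19. Car1, a carbonic anhydrase, went against the list, highest in replicate 2 at 12.18 and lowest in replicate 4 at 9.96. The globin gene Hba-a1 was read at 4.16 to 4.27, at the low end of the scale in every array, so its probe set says little about globin RNA.

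The promoters of Trim10 and Rhd are shown because both genes were among these 5 members with the largest SDs and hold AGATAA, the core bound by GATA factors. They cover the same span around the start (RefSeq, GRCm38.p6): Trim10 at chr17:36869324-36869623 and Rhd at chr4:134864286-134864585, both on the plus strand. Capitals mark AGATAA on either strand, so the opposite strand reads TTATCT.
Trim10: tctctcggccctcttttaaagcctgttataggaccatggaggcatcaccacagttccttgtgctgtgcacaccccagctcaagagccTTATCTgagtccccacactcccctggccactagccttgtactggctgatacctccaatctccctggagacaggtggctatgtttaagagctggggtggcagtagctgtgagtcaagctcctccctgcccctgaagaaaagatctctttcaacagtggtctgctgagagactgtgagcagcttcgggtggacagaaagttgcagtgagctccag
Rhd: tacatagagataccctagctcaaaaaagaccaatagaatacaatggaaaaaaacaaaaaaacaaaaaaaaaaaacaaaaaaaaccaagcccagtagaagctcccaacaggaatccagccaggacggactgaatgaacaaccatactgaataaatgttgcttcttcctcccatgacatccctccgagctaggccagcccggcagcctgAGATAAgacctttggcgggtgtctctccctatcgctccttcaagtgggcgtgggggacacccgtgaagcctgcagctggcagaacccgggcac
AGATAA on either strand was found in 7 of 23 promoters of the erythroid list (30.4%), which matched 20 genes. It was found in 11.2% of all promoters, in 4 of 24 neutrophil promoters (16.7%) and in 3 of 37 stem gene promoters (8.11%).

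Plasma cell genes were highest in replicate 1 and lowest in replicate 2. Of 31 entries, 25 were measured, with a median SD of 0.72, and 4 reached an SD of at least 1. The mean was 12.10, 10.66, 11.12, 11.53 and 11.66. Replicate 1 was highest for 19 members, against 23.2% of all genes, and replicate 2 lowest for 20, against 24.6%. Replicate 2 stood alone below the widest gap for 9 members, compared with 6.46% of all genes.

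Surface receptors and transcription factors of plasma cells were mostly highest in replicate 1 and lowest in replicate 2. Tnfrsf17, the survival receptor BCMA, read 10.28, 6.90, 8.19, 8.10 and 9.44, a 10.4-fold range. Tnfrsf13b, the related receptor TACI, read 12.23, 9.69, 10.58, 10.13 and 11.37. Sdc1, syndecan-1, read 11.76, 9.46, 10.25, 10.82 and 11.61. Irf4, a transcription factor of plasma cells, read 12.11, 9.54, 10.47, 10.75 and 10.96. Prdm1, the factor Blimp-1, was high in replicate 1 at 11.31 and stayed between 9.62 and 9.94 elsewhere. Xbp1, which drives the secretory programme, ranged from 13.39 to 14.30.

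Igha read 15.38, 15.10, 15.32, 15.27 and 15.32 (SD 0.11, n = 5), Ighm, the IgM heavy chain, had an SD of 0.06, and Jchain, which joins IgA and IgM units, an SD of 0.16. These values are near the top of the scale, where the median SD of genes with a mean of at least 14 was 0.12. Igha was nevertheless lowest in replicate 2, and its other bright probe sets were highest and lowest in the same arrays. Ighg3, an IgG heavy chain, ran the other way, with 10.47 in replicate 1 and 12.29 and 12.85 in replicates 2 and 4. Of the 7 other Ighm probe sets with a mean of at least 7, none had the same highest or lowest array as the brightest.

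Light-chain genes varied widely. Igk, a probe set for the kappa locus, read 12.61, 8.67, 11.07, 11.38 and 11.56 (SD 1.46), and Iglv1, a lambda variable gene, 13.06, 10.13, 11.80, 11.46 and 13.06. Of the other Igk probe sets with a mean of at least 7, another was also highest in replicate 1 and lowest in replicate 2, but the remaining one ran the other way at 7.31, 8.41, 8.27, 8.60 and 7.34. Of 13 measured kappa variable genes (Igkv), 10 had a mean of at least 7. Of these 10, 9 were lowest in replicate 2, against 24.6% of all genes. Their highest arrays were replicate 1 for 6, replicate 4 for 2 and replicate 5 for 2, against 23.2%, 21.7% and 30.5% of all genes. Their median SD was 1.19, and 6 of the 13 reached an SD of at least 1, against 3.20% of all genes. Igkv6-20 read 10.55, 6.84, 8.52, 8.14 and 13.55, highest in replicate 5. Igkv15-103 read 11.82, 6.53, 10.19, 9.44 and 11.59, and Igkv6-14 12.82, 7.72, 10.88, 11.19 and 12.49. Igkv8-30 had an SD of 0.16, at a signal near the top of the scale. Variable genes resemble each other, and their probe sets may share RNA.

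**Figure D4:**
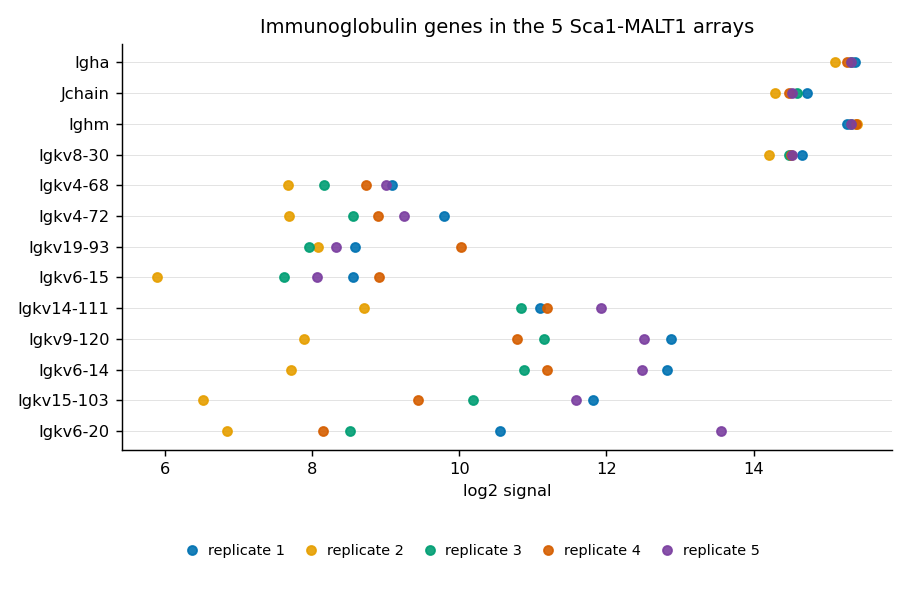
Log2 signal of Igha, Jchain, Ighm and the 10 kappa variable genes with a mean of at least 7, with a row for each gene and a point for each of the 5 Sca1-MALT1 arrays. Igha, Jchain, Ighm and Igkv8-30 stay above 14 in every array, while Igkv15-103 and Igkv6-14 reach down to 6.53 and 7.72 in replicate 2.

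Genes of other lineages followed several of the same arrays. NK and cytotoxic genes (19 measured, median SD 1.03, 10 with an SD of at least 1) had means of 8.60, 9.74, 9.08, 7.63 and 8.58. Replicate 2 was highest for 13 of them and replicate 4 lowest for 12, against 13.4% and 25.4% of all genes. Ifng, interferon gamma, read 9.66, 11.63, 10.20, 6.40 and 8.46, and Klrd1, the CD94 receptor chain, 10.56, 12.09, 11.93, 8.56 and 10.90. The natural killer receptor Ncr1 read 8.52 in replicate 2 and 5.81 to 7.24 elsewhere. Replicate 4 was therefore low for both T cell and cytotoxic lists, while replicate 2 was high for the cytotoxic list and ordinary for the T cell list.

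B cell genes (23 measured, median SD 0.77, 7 with an SD of at least 1) had means of 8.73, 8.18, 8.51, 7.76 and 8.35. Bank1, an adaptor of B cell receptor signalling, read 11.22, 9.95, 11.29, 7.82 and 9.93. Cd79a, a chain of the B cell receptor, read 10.11, 7.15, 8.48, 7.17 and 8.52. Dntt, the polymerase of early lymphoid cells, ran differently at 6.20, 10.85, 8.16, 7.73 and 9.29, highest in replicate 2 and lowest in replicate 1. Of 31 stem genes, 20 were also lowest in replicate 1, while 10 were highest in replicate 2 and 18 in replicate 5. The class II genes H2-Aa, H2-Ab1 and H2-Eb1, of B cells and other antigen-presenting cells, were all lowest in replicate 4, with a mean of 10.91 against 11.62 to 12.55.

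Monocyte, macrophage and dendritic cell genes (25 measured, median SD 0.75) were highest in replicate 4 for 14 members and lowest in replicate 2 for 13, against 21.7% and 24.6% of all genes. Csf1r, the receptor of macrophage colony-stimulating factor, read 9.62, 8.70, 8.63, 11.64 and 9.26. Fcgr3, an Fc receptor, read 8.70, 8.38, 7.23, 10.42 and 7.92. The resident-macrophage genes C1qa, C1qb, C1qc, Vcam1 and Mrc1 were lowest in replicate 2, with a mean of 6.39 against 8.03 to 8.36 in the other 4 arrays. In mast cell, basophil and eosinophil genes (14 measured, median SD 0.99) replicate 4 was highest for 8, against the same 21.7%. Hdc, which makes histamine, read 8.93, 9.08, 6.08, 11.08 and 7.62.

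Vessel and platelet genes were often highest in replicate 5. Endothelial genes (18 measured, median SD 0.51) were highest in replicate 5 for 13 members, against 30.5% of all genes. Cldn5, a tight-junction protein of endothelium, read 11.62 in replicate 5 and 8.00 to 8.97 elsewhere. Tek, a receptor of endothelial and stem cells, read 7.72 there and 4.54 to 5.85 elsewhere. The endothelial genes Pecam1, Cdh5 and Emcn stayed between 4.83 and 6.57. Of 17 megakaryocyte and platelet genes, 11 were highest in replicate 5, against the same 30.5%. Vwf, von Willebrand factor, read 5.50, 8.11, 7.29, 6.38 and 10.65. Ppbp, a platelet chemokine, was low in replicate 2 at 5.26 against 7.63 to 8.24. Stromal and bone genes (21 measured, median SD 0.43) were highest in replicate 5 for 11 and lowest in replicate 2 for 12, against 30.5% and 24.6% of all genes. Adipoq, an adipocyte hormone, read 9.81, 6.58, 9.01, 7.39 and 9.16.

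Replicate 2 was the highest array for interferon-induced genes, in 15 of 21, against 13.4% of all genes. The list mean was 8.07, 9.39, 8.52, 8.95 and 8.58. Oasl2, an antiviral protein, read 6.80, 10.02, 7.63, 9.38 and 8.91. Gbp2, a guanylate-binding protein induced by interferon, read 12.99 in replicate 2 and 10.59 to 11.28 elsewhere. Iigp1, another interferon-induced GTPase, was the gene furthest above all other arrays in replicate 2, at 12.48 against 7.19 to 9.14. Rsad2, viperin, did not follow, and was lowest in replicate 2 at 11.62 and highest in replicate 3 at 13.57.

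Cell cycle genes split into subsets. Mcm2 to Mcm7, the replicative helicase, and Pcna, the polymerase clamp, were all lowest in replicate 1, and 5 of the 7 were highest in replicate 2, against 15.3% and 13.4% of all genes. Their mean was 11.30, 12.27, 11.63, 12.23 and 11.92. The other 20 genes, many of them mitotic, had a mean of 9.42, 9.29, 10.21, 10.61 and 9.55, with 12 highest in replicate 4 and 7 in replicate 3, against 21.7% and 11.3% of all genes. Both subsets were formed after the values were seen. Ube2c, which promotes exit from mitosis, read 10.35, 9.14, 11.56, 11.67 and 10.49, and the mitotic kinase gene Plk1 8.40, 7.65, 8.65, 9.97 and 7.61. Replicates 3 and 4 had the highest means of these other 20 genes and also of the erythroid list. Among the 27 cell cycle genes, the widest gap put replicates 3 and 4 together on the high side for 9 (1.07% of all genes). Replicate 4 alone was on that side for 6 (9.53% of all genes), among them the mitotic genes Bub1b, Cdc20 and Plk1.

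**Figure D5:**
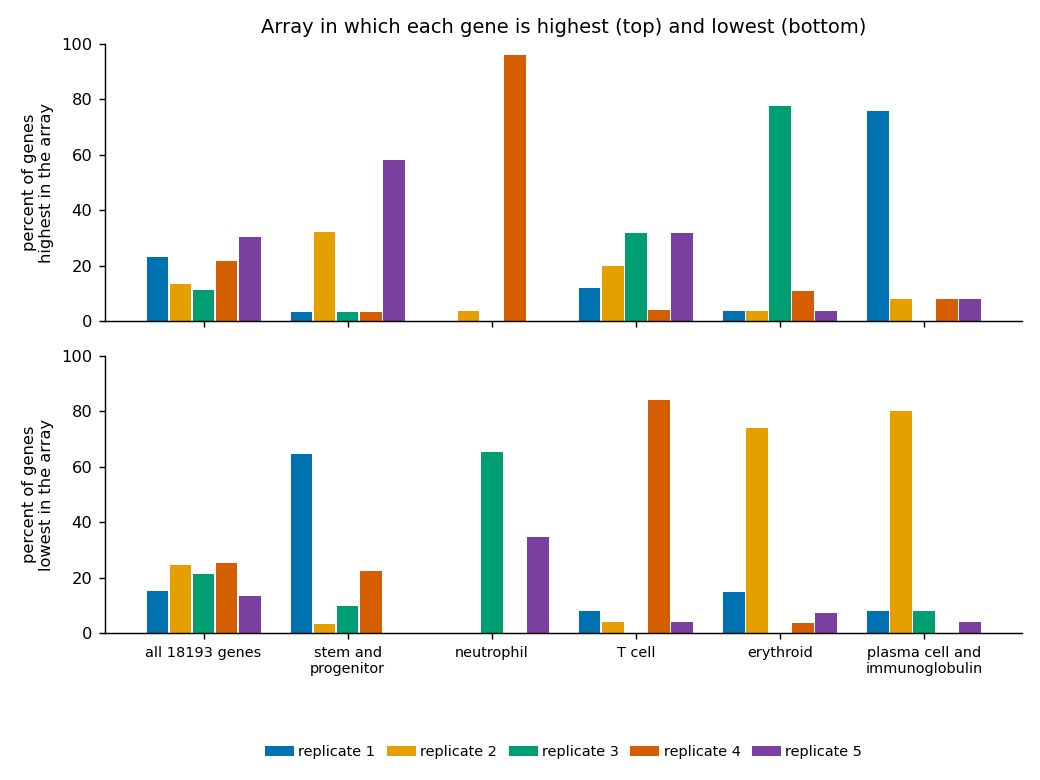
Share of measured members, in percent, whose highest (upper panel) or lowest (lower panel) value was in each of the 5 Sca1-MALT1 arrays, for the 5 main lists and for all 18193 genes. Replicate 4 was highest for 25 of 26 neutrophil genes and lowest for 21 of 25 T cell genes, against 21.7% and 25.4% of all genes.

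Stress genes showed a few isolated high values. In the immediate early and heat shock list (25 measured, median SD 0.53) the list mean ranged over 0.39. Hspa1a, an inducible chaperone, read 6.18, 5.79, 6.34, 9.11 and 7.07. Hspa1b, its near-identical neighbour, read 7.48, 8.02, 7.42, 10.09 and 10.01, and probe sets of such copies may detect each other's RNA. The immediate early genes Fos and Dusp1 ranged from 12.58 to 13.94 and from 10.90 to 11.95.

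Genes that set single arrays apart came from the same and from other groups. Replicate 4 was furthest above the rest at Mgam, at the acute-phase gene Saa3 (10.81 against 6.41 to 7.27) and at Prok2, a secreted peptide of neutrophils (9.46 against 5.12 to 5.93). It was furthest below at Ifi202b and at Slamf6, a receptor of T and NK cells, which read 6.16 against 9.22 to 9.50. Without replicate 4 the SD of Slamf6 was 0.13. Replicate 1 was furthest above at the tubulin gene Tubb2b (9.92 against 6.65 to 7.51), the chemokine receptor gene Ackr3 (7.26 against 3.45 to 4.97) and the sodium pump subunit gene Atp1b1 (12.40 against 9.46 to 10.17). It was furthest below at 1810073O08Rik and at Myct1, at 5.18 and 5.54.

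Replicate 3 lay furthest above the rest at Mageb16 (9.56), 5830411N06Rik (10.17) and Kcnk1, a potassium channel (8.91). Ugt8a read 3.57 there against 6.10 to 9.07. Replicate 2 was furthest above at Iigp1, at Gm4951 (10.49 against 5.98 to 7.42) and at the myosin light chain gene Myl10 (9.07 against 5.60 to 6.36). Replicate 5 was above the rest at Gstm2, a glutathione transferase (7.59 against 4.03 to 4.59), and at Plk2, a polo-like kinase (11.35 against 6.95 to 8.47). Its lowest genes against the rest were Malat1 and Cap1.

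Ubiquitous genes had a median SD of 0.18 over 16 genes. None reached an SD of at least 1, and the list mean stayed between 12.61 and 12.83. The ribosomal gene Rpl13a, the translation factor Eef1a1 and B2m, the class I light chain, had SDs of 0.09, 0.08 and 0.10. Actb and Tfrc were the exceptions named above, at 0.84 and 0.82. Among genes with a mean of at least 10, the smallest SDs were those of Tpt1, a ubiquitous growth-related protein, and Rps29, a ribosomal protein, at 0.01 and 0.03, both near the top of the scale. Mfsd14a, Suds3 and Ap3b1 were steady lower down, between 10.66 and 10.73, 10.32 and 10.40, and 10.27 and 10.35. Suds3 is a subunit of a histone deacetylase complex, and Ap3b1 an adaptor of vesicle transport.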

How the data were processed

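The authors deposited a table of log2 values of 45101 probe sets in 8 arrays, normalized with RMA per the submitters' processing notes; its version is not stated there. RMA corrects background, makes the arrays' distributions alike and summarises probes, so a shift shared by most genes would not be seen. Control probe sets (64), probe sets with several symbols (932) and those not listed in the platform annotation (9160) were left out, which left 34945 with a single symbol. Each gene was read by its brightest probe set, judged by the mean of the 8 arrays, which gave 18193 genes; 18031 had symbols updated through Entrez numbers and the RefSeq table of GRCm38.p6. The steps were run in Python 3.11.15 with pandas 2.3.3 and numpy 2.4.6 and checked on simulated data.

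Only the 5 Sca1-MALT1 arrays were described, so there was no second group, no test and no p-value. The SD, the range, the highest and lowest array and the widest gap were taken for each gene. Fold ranges are 2 to the power of the log2 range and are compressed near both ends of the scale. Signal levels cannot be ranked between genes. The number of arrays limits the precision: with 5 arrays the SD of a single gene is imprecise.

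The arrays, the markers and the 17 gene lists (409 entries, 364 measured) were chosen with earlier results of these data known. Genes were named by rule: 5 markers; the 24 largest SDs; in each main list the 5 largest SDs and the 2 smallest among members with a mean of at least 7; 2 from each other list; for each array the 3 genes furthest above and 2 furthest below the other 4; and the 5 smallest SDs among genes with a mean of at least 10. Other named members and the subsets of lists were chosen after their values were seen. Alternatives were other scalings, a filter on dim genes, other ways to pick probe sets, other measures and thresholds of spread, lists without shared genes, and leaving out each array.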

Additional observations from a re-analysis of the deposited data

Results flagged for a closer look

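Measures were picked out where the highest or lowest of the 5 arrays lay far from the nearest other array relative to the whole range (a ratio above 0.71). Chance gives this in about 1 of 20 groups, and 7.12% of all genes (1296 of 18193) exceeded it. Of 124 measures examined, 19 did, 16 of them among 103 named genes. Since many of these genes were named for a large spread or for a single array, their number says little.

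Replicate 4 was set apart from below by the mean of the T cell list (8.78 against 9.77 to 10.08), Cd28 (8.61 against 10.36 to 10.66), Thy1 (10.99 against 12.46 to 12.92), Slamf6 (6.16 against 9.22 to 9.50) and Ifi202b (4.42 against 8.53 to 9.57). It was set apart from above by Itgam (8.71 against 4.28 to 5.55), Saa3 (10.81 against 6.41 to 7.27) and Prok2 (9.46 against 5.12 to 5.93).

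Replicate 5 was set apart by the β-actin controls, with a 3′ minus 5′ difference of 2.49 against 1.25 to 1.53 and a 3′ signal of 12.97 against 14.55 to 14.73. Its values were also apart and low for Actb (12.72 against 14.54 to 14.64), Malat1 (7.63 against 12.34 to 13.37) and Cap1 (6.57 against 11.55 to 11.87), and high for Cldn5 (11.62 against 8.00 to 8.97) and Gstm2 (7.59 against 4.03 to 4.59).

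Replicate 2 was low for Ppbp (5.26 against 7.63 to 8.24) and high for Myl10 (9.07 against 5.60 to 6.36). Replicate 1 was high for Tubb2b (9.92 against 6.65 to 7.51) and Atp1b1 (12.40 against 9.46 to 10.17).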

How the results depend on the processing

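The count of 583 of 18193 genes with an SD of at least 1 was 383 with the mean of all probe sets of a gene. With every probe set counted by itself it was 1104, out of 34945 probe sets in place of 18193 genes. At the stricter SD of at least 1.5, which can only lower the count, it was 130. Stem genes had a median SD of 0.61 in place of 1.0 with the mean of probe sets. A range is always larger than the SD of the same values. As a median range in place of an SD, the spread was 2.51 for stem, 3.54 for neutrophil, 1.56 for T cell, 1.90 for erythroid and 1.85 for plasma cell genes. With the median of members, the list range was 1.77 for T cell genes (replicate 5 over replicate 4) and 2.10 for plasma cell genes. Among genes with a mean of at least 7, replicate 5 alone was high in 6.80% in place of 11.5%. Leaving out each array in turn gave 444 to 662 genes with an SD of at least 1; a median SD of 0.80 to 1.53 and a list range of 1.71 to 3.34 for neutrophil genes; and 0.30 to 0.77 and 0.31 to 1.30 for T cell genes, each lowest without replicate 4. The share with replicate 5 alone high was 12.1% to 23.5%, with 23.5% without replicate 2 and 18.2% without replicate 4. These shares are not comparable with the 11.5%, since fewer divisions are possible with an array left out. A gene high in replicates 2 and 5 counts as high in replicate 5 alone once replicate 2 is dropped. Of the other settings for the main results, 104 of 116 stayed within the bounds set for them, as did 72 of 78 with an array left out. Some of these settings could not change a result. Leaving out Xist and the Y-linked genes, another setting, does not touch the lineage lists. A list range stays the same when the array left out is neither its highest nor its lowest. The counts here and in the next sentence therefore give little measure of stability. The array with the highest and that with the lowest list mean were kept in 8 of 8 settings other than leaving out an array for stem, neutrophil, erythroid and plasma cell genes, in 7 of 8 for T cell genes and in 4 of 8 for megakaryocyte genes. Apart from the changes of threshold, of counting unit, of possible divisions and from SD to range, the cause of these changes was not tested. No paired analysis was possible because a single group was described and no test was made.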

Other observations

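Further genes that divided the arrays are named here after their values were seen. Replicates 2 and 5 stood high together at Slc18a2, the vesicular monoamine transporter, which read 6.05, 9.51, 6.84, 6.63 and 9.50 in replicates 1 to 5. Bex1 read 8.01, 11.41, 9.57, 9.31 and 11.85, and Tfr2, a second transferrin receptor, 8.18, 10.84, 8.61, 9.28 and 11.11. Replicate 4 alone was high at Lrg1, a leucine-rich glycoprotein of neutrophil granules, at 12.63 against 7.83 to 9.33. It was also high at Orm1, an acute-phase protein, at 8.95 against 4.81 to 5.70. Replicate 4 alone was low at Sh2d1a, the adaptor SAP that binds Slamf6 and its relatives, at 5.14 against 7.76 to 8.33. Egr3, a factor induced by antigen receptors, read 5.18 there against 7.24 to 8.39.

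Genes sitting at 2 separate levels were counted: a gap of at least 2, at least 2 arrays on each side, and a range of at most 1 within each side. There were 14 such genes, and in 4 of them, Gcnt1, Mndal, Trim12a and Trim5, the 3 wild-type arrays were also split. Wild-type arrays read 10.13, 4.15 and 9.37 for the brightest probe set of Trim12a and 8.51, 4.47 and 7.82 for Trim5. Trim5, Trim12a and Trim34a are neighbours on the chromosome and were all high in replicates 1, 2 and 5. Inpp4b, a lipid phosphatase, was at 9.60 to 10.06 in replicates 1 to 3 and at 6.45 and 5.72 in replicates 4 and 5.

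H2-D1, a class I histocompatibility gene, gave opposite patterns by probe set. Its brightest probe set read 10.32, 10.78, 14.28, 13.88 and 13.999, and another read 13.50, 13.94, 10.40, 13.55 and 10.25. Class I genes are near copies of each other and differ between mouse strains, so these values give no level of the gene.

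Of 18122 pairs of measured genes that neighbour each other in the RefSeq order, 48 had SDs of at least 1 in both genes. Over all genes 3.20% had such an SD. The same widest-gap division was found in 19 of the 48, and in 9 of these it was replicate 4 alone on the high side. Among them were Prtn3 with Elane, Clec4d with Clec4e, Trem1 with Trem3 and Cd177 with Ceacam10. That division held for 26.4% of all genes with an SD of at least 1, so pairs can share it without being neighbours. Pairs that are not neighbours were not counted.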
